A study of Saccharomyces cerevisiae with 37 samples.

Results

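The transcripts of the yeast proteasome were followed through 35 genes: 14 subunits of the core particle, 19 subunits of the regulatory particle, the assembly factor UMP1 and the tethering protein ECM29. Members were chosen by gene symbol from the annotation of the array, with the brightest probe set kept for each gene. Every member had 1 probe set and all 35 were bright enough to be tested, among 3899 genes tested and 5449 genes on the array. Cells were budding yeast (strain Y262) whose RNA polymerase II fails at high temperature. They were grown in YPD medium at 26 °C and brought to 37 °C with an equal volume of hot medium at 49 °C. This shift was meant to stop messenger RNA synthesis so that the remaining RNA could be followed. How fully synthesis stopped was not tested. Reference 1 (10 arrays) and reference 2 (7 arrays, to 30 min only) had no stress. Before the shift 1 further culture spent 25 min in 0.3 mM hydrogen peroxide, and another was given 0.1% methyl methanesulfonate (MMS, a DNA alkylating agent) 40 min ahead. The pairing of these pretreatment times with the agents follows the order in which the labels name them. Both references carried the same mutation and went through the same heat shift as the stressed cultures. Each stress was applied to 1 culture, and a point mutation in the polymerase cannot be checked on an expression array.

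The proteasome degrades proteins tagged with ubiquitin. Its barrel-shaped core particle is built of an outer alpha ring and an inner beta ring on each side, and the beta subunits PRE3, PUP1 and PRE2 carry the protease sites. The regulatory particle caps the barrel: its base holds the ATPase ring RPT1 to RPT6, which unfolds substrates, and its lid holds RPN11, which removes ubiquitin chains. In budding yeast the transcription factor Rpn4 binds a shared promoter element of proteasome genes and is itself a short-lived substrate, and stress is known to raise the transcription of these genes through it.

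Each array was centred on the median of the 3899 tested genes, because the pairs of technical arrays at time 0 were offset as a whole (by 0.46 log2 in reference 1 and 0.36 in the hydrogen peroxide culture), for members as for other genes. A level or a slope is therefore relative to the median gene unless it is called deposited. Slopes are in log2 per 10 min over 0 to 30 min, and a higher slope is a slower loss of signal. Signals of different probe sets are not comparable as amounts of RNA, and because complementary DNA was primed from poly(A) tails, a change of tail length cannot be told apart from a change of transcript. On MMS arrays the bright genes lay closer to the median gene (95th percentile of genes 2.51 log2 above it, against 2.83 to 2.91 in the other cultures), and most members are such bright genes. The part of this compression in the MMS values was not tested.

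Before the shift most proteasome probe sets were brighter than that of the median tested gene in unstressed cells. The deposited time 0 signal of core subunits had a median of 15.18 log2 in reference 1, with PRE5 lowest and PRE6 highest, and that of regulatory subunits had a median of 14.78, with RPN12 lowest and RPN7 highest. The references ranked the members alike, with Pearson's r of 0.975 for the centred level and 0.848 for the slope over the 35 genes, given as a description over genes that share arrays. The median absolute difference between references was 0.071 log2 in level and 0.028 log2 per 10 min in slope. ECM29, which tethers the core to the regulatory particle, was the 1 member below the median gene in the references.

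In unstressed cells the median proteasome transcript decayed a little more slowly than the median gene. The median deposited slope of the members was −0.35 in reference 1 and −0.24 in reference 2, against −0.40 and −0.30 for all tested genes, and these convert to half-lives of 28.4 and 42.1 min against 25.2 and 33.2 min. Core subunits had half-lives of 25.0 and 39.9 min and regulatory subunits 28.5 and 47.2 min, so the regulatory particle was the slower of the pair in each reference. In reference 2 the deposited signal did not fall steadily: the median member kept 48.6% at 15 min and 58.4% at 30 min. The median gene kept 47.6% and 50.5%. Half-lives there are those of a straight line over 0 to 30 min, not of a steady decay. Half-lives rest on deposited values, from which offsets of whole arrays are not removed, so they are set against the median gene of the same culture. The 12 spike-in control probe sets also fell on that scale. Their median slope was −0.107 in reference 1, −0.124 in reference 2, −0.103 after hydrogen peroxide and −0.096 after MMS. The part of this fall in the half-lives was not tested.

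Against the median gene, limma called 5 of 35 members as slower in the references (adjusted p below 0.05 over all genes), where 13.9% of all tested genes were called slower, so the count lies near the background. The centred slope was tested against 0, while the median slope of all tested genes was 0.037 on that scale. The test therefore leans towards slower calls. The called members were ECM29, the protease subunit PUP1, the base scaffold RPN2, the ATPase RPT3 and the lid subunit RPN12. ECM29 had slopes of 0.32 and 0.27 above the median gene (mean 0.29 ± 0.04 SE, limma adjusted p = 0.0323). PUP1 had slopes of 0.22 and 0.19 (limma adjusted p = 0.0421), whereas the alpha ring subunit PUP2 had −0.02 and −0.04, the lowest of the core, and was not called.

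RPN2 had slopes of 0.19 and 0.22 (limma adjusted p = 0.0422), and RPT3 had 0.18 in both references (limma adjusted p = 0.0464). RPN12 had slopes of 0.16 and 0.19 (limma adjusted p = 0.0487). The ATPase RPT1 (−0.01 and 0.00) and the small lid subunit SEM1 (0.01 and −0.05) sat at the other end of the base and the lid. With slopes taken from 5 min on, 0 members were called by limma, where 2.87% of tested genes were called slower. At an unadjusted p below 0.05 lay 7 members (20.0%) and 34.2% of tested genes. On deposited values, with the median slope of each culture subtracted, limma called ECM29, PUP1 and RPN2, beside 14.3% of tested genes called slower.

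**Figure D1:**
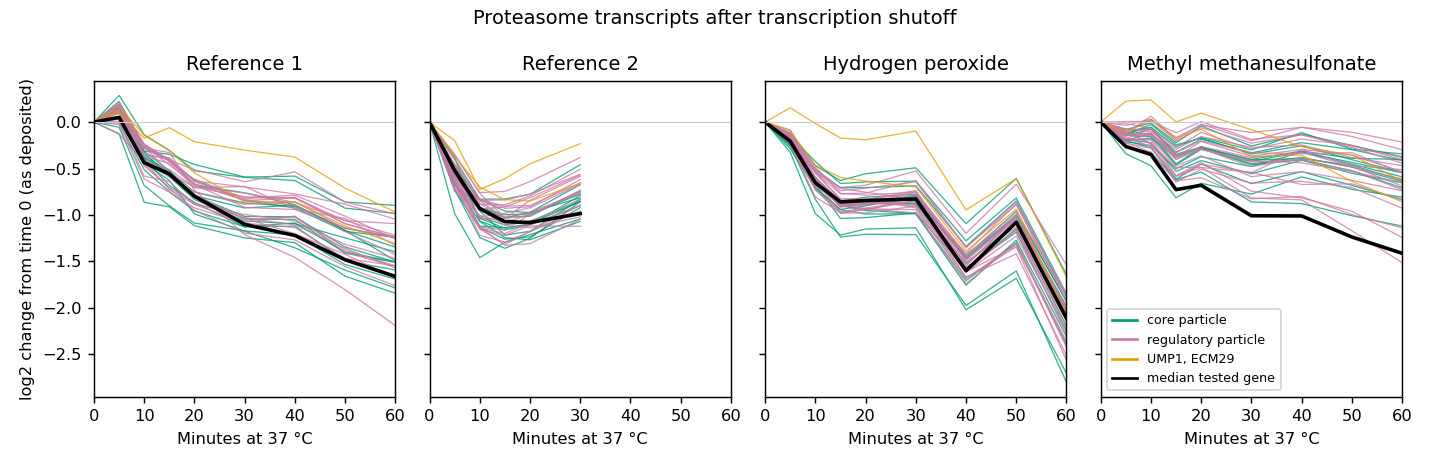
Change of deposited log2 signal from time 0 (vertical axis) against minutes at 37 °C for the 35 members (thin lines, coloured by particle) and the median tested gene (thick black line) in the 4 cultures. In the MMS culture nearly all members run above the median gene, and in the hydrogen peroxide culture the median gene runs through the middle of them.

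Before the shift, hydrogen peroxide came with higher member signals relative to the median gene. The median member was 0.18 log2 higher than the mean of the references, while the median of all tested genes was 0.09 lower, and 29 of 35 members lay above both references, where 27.4% of all tested genes did. None of the members (0 of 35) lay below both, where 48.4% of tested genes did. The difference was 0.22 for the regulatory particle (17 of 19 above both references) and 0.14 for the core (10 of 14), with the lid at 0.28 (9 of 9) and the base at 0.12 (8 of 10). The members that did not lie above both were PRE9, PRE6, PUP1, PRE2, RPT1 and RPT2. The size of the difference from the references depends on the scaling: on deposited values the median member was 0.56 log2 higher and the median of all tested genes 0.29 higher. With quantile normalization these values were 0.22 and −0.04, and with cyclic loess 0.24 and −0.05. The median member thus lay above the median of all tested genes under each scaling.

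By limma across cultures 0 of 35 members were called after hydrogen peroxide (lowest adjusted p 0.267), where 3.80% of tested genes were called. At an unadjusted p below 0.05 lay 1 member and 15.9% of tested genes. ECM29 showed the largest difference, with centred levels of −0.58 and −0.36 in the references and 0.10 after hydrogen peroxide (difference 0.57, 95% interval 0.051 to 1.08, limma adjusted p = 0.267). The lid subunit RPN3 had deposited signals of 13.95 and 14.43 on the arrays of reference 1, 13.89 and 13.79 in reference 2, 14.69 and 15.06 after hydrogen peroxide and 14.29 and 14.28 after MMS. The lowest hydrogen peroxide array was above the highest reference array on this deposited scale, on which 72.9% of tested genes and all 35 members had a hydrogen peroxide level above both references. Its centred difference was 0.48 (95% interval −0.026 to 0.98, limma adjusted p = 0.343).

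Other members of each group spread around these values. In the core the range ran from PRE6, the alpha ring subunit with the brightest probe set, at 0.00 to the beta subunit PRE4 at 0.23 (95% interval −0.25 to 0.72). Within the ATPase ring it ran from 0.00 for RPT1 to 0.39 for RPT3 (95% interval −0.093 to 0.88). In the lid RPN7 was lowest, at 0.04. UMP1, which helps the core assemble and is degraded by the finished particle, had centred levels of 1.37 and 1.26 in the references and 1.70 after hydrogen peroxide (difference 0.38, 95% interval −0.11 to 0.87, limma adjusted p = 0.445).

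MMS gave no common shift of the members at time 0 on the centred scale. The median difference was 0.00 log2, against −0.10 for all tested genes. Above both references lay 15 of 35 members, where 29.7% of tested genes did, and below both lay 13, where 50.4% did. The core leaned down (median −0.07, with 4 above and 7 below) and the regulatory particle up (0.05, with 9 above and 6 below). This result depends on the scaling: the median difference was −0.05 on the deposited values but 0.32 with quantile normalization and 0.36 with cyclic loess. With either normalization 34 of 35 members lay above both references, where 37.4% (quantile) and 38.7% (cyclic loess) of tested genes did.

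limma called 0 of 35 members after MMS (lowest adjusted p 0.190), where 1.82% of tested genes were called. At an unadjusted p below 0.05 lay 1 member and 18.2% of tested genes. ECM29 was again the largest, at 0.25 after MMS (difference 0.72, 95% interval 0.21 to 1.24, limma adjusted p = 0.190). The protease subunit PRE2 was the lowest, with centred levels of 2.38 and 2.11 in the references and 1.94 after MMS (difference −0.30, 95% interval −0.83 to 0.23). PRE8, an alpha subunit, was the highest of the core at 0.11.

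In the base RPT3 was highest at 0.31 and RPT1 lowest at −0.17, and in the lid RPN3 was highest at 0.32 and RPN7 lowest at −0.13. RPN12 had centred levels of 1.13 and 0.97 in the references, 1.42 after hydrogen peroxide and 1.37 after MMS. It lay above both references in each stress, as did RPN3 and RPT3 among other members. Taken singly, 27.4% of tested genes did so after hydrogen peroxide and 29.7% after MMS. Between the 2 stressed cultures the members were 0.16 log2 higher after hydrogen peroxide on the median, and limma called 0 of 35, where 0.103% of tested genes were called (at an unadjusted p below 0.05, 0 members and 8.18% of tested genes).

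**Figure D2:**
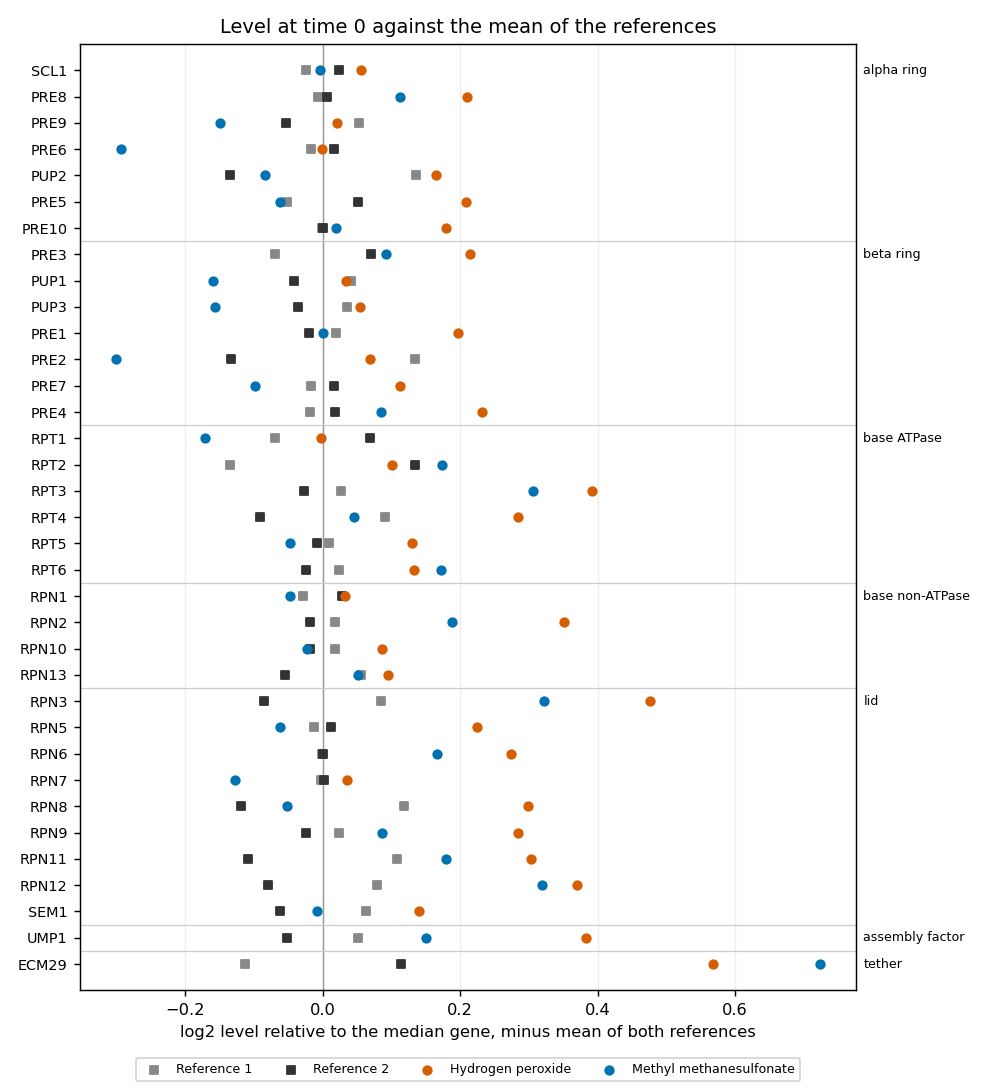
Level at time 0 of each member relative to the median gene, minus the mean of the 2 references (horizontal axis, log2), in reference 1, reference 2, hydrogen peroxide and MMS, 1 point per culture. Hydrogen peroxide points lie to the right of both references for 29 of 35 members, and MMS points lie on both sides, with ECM29 farthest right.

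After the shift, the median member of the MMS culture lost signal more slowly than the median gene, by a wider margin than in the references. It kept 75.1% of its time 0 signal at 30 min and 64.9% at 60 min on the deposited scale, while the median tested gene kept 49.7% and 37.6%. At 30 min the median member kept 52.9% and the median gene 46.6% in reference 1, and 58.4% and 50.5% in reference 2. Within the MMS culture the half-life was 73.8 min for the median member and 30.8 min for the median gene. The deposited slope behind the member value was −0.135, where the spike-in control probe sets had −0.096, so the length in minutes is uncertain.

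Relative to the median gene, 32 of 35 members had a higher slope after MMS than in both references, where 34.0% of tested genes did, and 0 had a lower one, where 44.5% did. The exceptions were RPT5, RPN1 and ECM29. All 14 core subunits and 17 of 19 regulatory subunits were among the 32, and the median difference was 0.11 for the core and 0.08 for the regulatory particle. The members' median difference was 0.095 on the centred scale, 0.15 on deposited values and 0.14 with quantile or cyclic loess normalization. Under these last 3 scalings 33, 34 and 34 members lay above both references, where 42.9%, 40.6% and 38.6% of tested genes did. Across cultures limma called 0 of 35 members (lowest adjusted p 0.264), where it called 0% of all tested genes. At an unadjusted p below 0.05 lay 0 members and 19.1% of tested genes.

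The ATPase RPT2 showed the largest slope difference, with slopes of 0.10 in both references and 0.28 after MMS (difference 0.18, 95% interval −0.0027 to 0.36, limma adjusted p = 0.264). Its deposited signal at 30 min was 55.7% and 59.2% of the start in the references and 87.9% after MMS. PRE2 led the core, with slopes of 0.02 and 0.06 in the references and 0.19 after MMS (difference 0.155). RPN6, the lid subunit that clamps the core, led the lid, with 0.05 and 0.13 in the references and 0.21 after MMS (difference 0.12).

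At the low end RPN1, a base scaffold that docks ubiquitin receptors, had 0.04 and 0.05 in the references and 0.05 after MMS. PUP1, already slow in the references, gained 0.02, and RPN3 gained 0.05. ECM29 had 0.32 and 0.27 in the references and 0.27 after MMS, so that its MMS value lay between its references. UMP1 had 0.11 in both references and 0.23 after MMS (difference 0.12, 95% interval −0.062 to 0.30).

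After hydrogen peroxide the median member decayed about as fast as the median gene. The centred slope of the median member was 0.029, against 0.088 and 0.094 in the references, and the median of all tested genes was 0.035. Below both references lay 29 of 35 members, where 35.0% of tested genes did, and above both lay 3, where 33.2% did. The 29 held 10 of 14 core and 17 of 19 regulatory subunits, with median differences of −0.06 and −0.07.

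The sign of the difference from the references depends on the scaling. The members' median was −0.059 centred, −0.045 with quantile and −0.022 with cyclic loess normalization, but 0.0015 on deposited values. All tested genes had medians of −0.0020, 0.0052, 0.0090 and 0.058 in the same order, so the median member lay below them under each scaling. On deposited values 1 member lay below both references and 4 above, where 13.2% and 50.1% of tested genes did. limma called 0 of 35 members (lowest adjusted p 0.759), where it called 0% of tested genes, and at an unadjusted p below 0.05 lay 0 members and 7.34% of tested genes. Half-lives of the median member and of the median gene in the hydrogen peroxide culture were 33.7 and 34.4 min.

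RPT3 and PRE8 had the lowest differences. RPT3 had slopes of 0.18 in both references and 0.03 after hydrogen peroxide (difference −0.15, 95% interval −0.33 to 0.027), and RPN6 led the lid downwards with −0.02 against 0.05 and 0.13. PRE8 had 0.00 and 0.08 in the references and −0.11 after hydrogen peroxide. The members above their references were PUP2 (difference 0.01), RPT1 (0.01) and SEM1 (0.06), which had the lowest reference slopes of the core, the base and the lid.

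**Figure D3:**
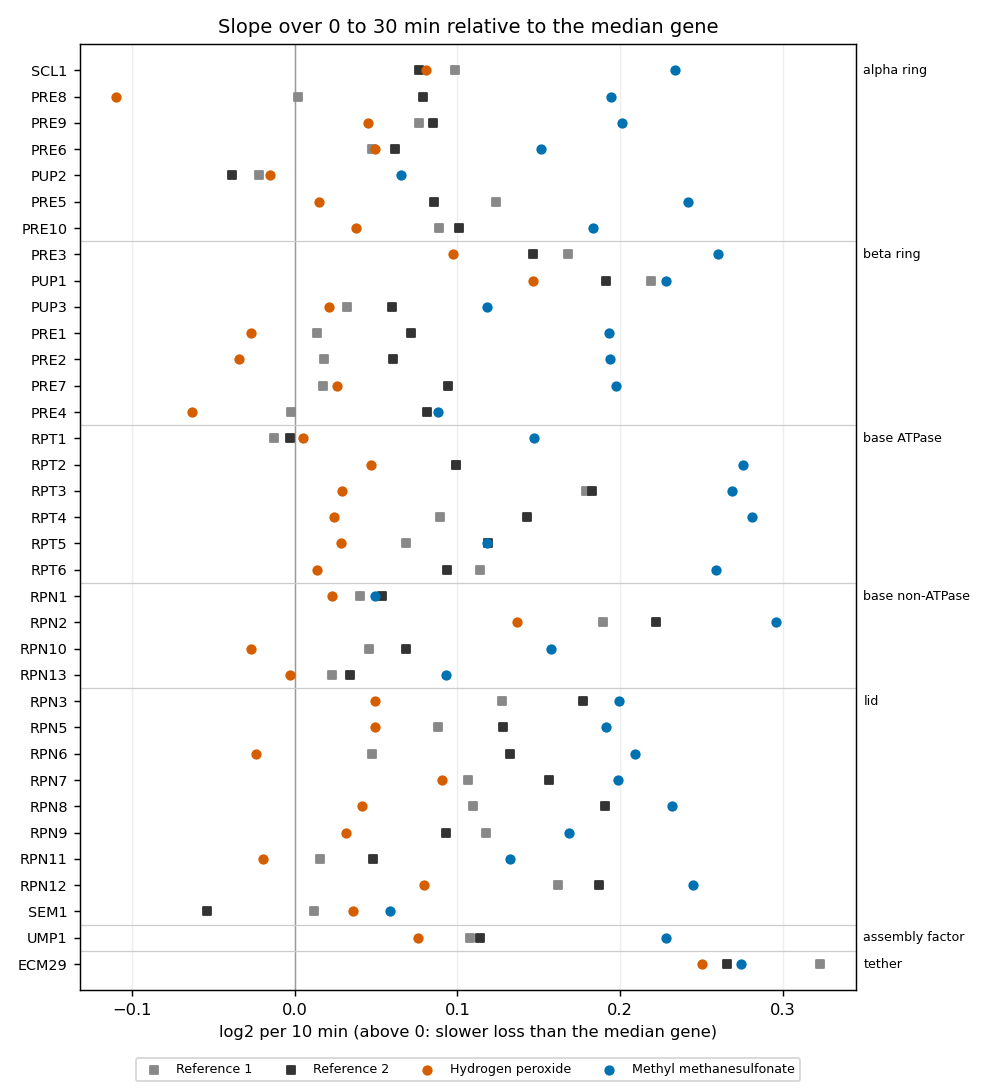
Slope over 0 to 30 min relative to the median gene (horizontal axis, log2 per 10 min, a higher value being a slower loss) for each member in the 4 cultures, 1 point per culture. MMS points lie to the right of both references for 32 of 35 members, and hydrogen peroxide points to the left for 29.

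On the centred scale 26 of 35 members had a slope below both references after hydrogen peroxide and above both after MMS, as did 446 of the 3899 tested genes (11.4%). The members with both were 25 with quantile and 24 with cyclic loess normalization, but 1 on deposited values. In the same order 13.0%, 11.5% and 5.75% of tested genes had both. Set directly against each other, hydrogen peroxide minus MMS gave a median slope difference of −0.15 over the members against 0.02 over all tested genes. The value was below 0 for all 14 core and all 19 regulatory subunits, whereas more of the tested genes lay above 0 than below it. limma called 0 of 35 members (lowest adjusted p 0.214), where it called 0% of tested genes. At an unadjusted p below 0.05 lay 7 members (20.0%) and 20.0% of tested genes, so this count is at the background. PRE8 differed most, at −0.30 (95% interval −0.55 to −0.063, limma adjusted p = 0.214), and SEM1 least, at −0.02.

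Core and regulatory particle gave similar slope differences from the references. In level at time 0 they lay further apart, and after MMS on opposite sides of 0 on the centred scale. The core median minus the regulatory median was 0.01 for the slope after hydrogen peroxide and 0.03 after MMS, and −0.08 and −0.12 for the level at time 0, and these differences between the particles were not tested. In the references the core was 0.40 log2 brighter at time 0 and its slope was 0.05 lower. The first was 0.40 and 0.41 in the references taken singly, although probe sets differ in response, and the second was −0.05 and −0.04.

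**Figure D4:**
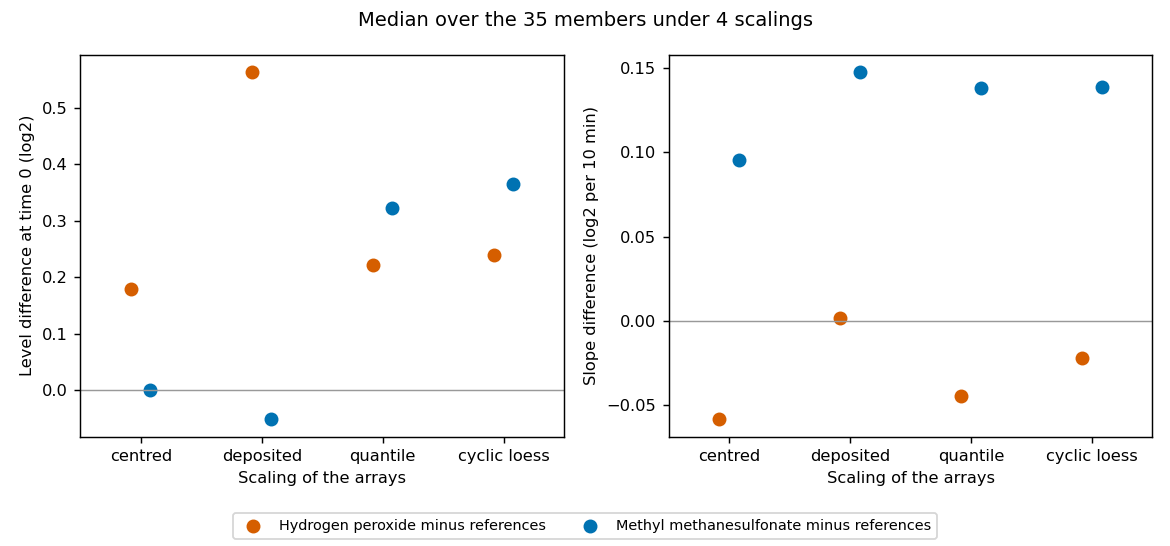
Median over the 35 members of the difference from the mean of the references in level at time 0 (left, log2) and in slope (right, log2 per 10 min), for both stresses under 4 scalings of the arrays. The MMS slope and the hydrogen peroxide level stay above 0 under all 4, whereas the MMS level and the hydrogen peroxide slope cross 0.

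Of 44 other genes of the ubiquitin and proteasome system, listed with earlier results of these data known, 42 were tested, and 4 rose after hydrogen peroxide (limma adjusted p below 0.05), where 3.03% of all tested genes rose. DOA4, a deubiquitinase that recycles ubiquitin, rose by 2.09 log2 (limma adjusted p = 0.00647), from −1.63 and −1.28 in the references to 0.63. YAP1, the transcription factor of the oxidative stress response, rose by 1.61 (limma adjusted p = 0.0104). DDI1, a shuttle protein that carries ubiquitinated substrates, rose by 1.29 after hydrogen peroxide (limma adjusted p = 0.0228) and by 1.26 after MMS (limma adjusted p = 0.0443), and the ubiquitin-conjugating enzyme UBC5 rose by 1.07 after hydrogen peroxide (limma adjusted p = 0.0451).

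RPN4, the transcription factor of the proteasome genes, had centred levels of 1.46 and 0.48 in the references, 2.08 after hydrogen peroxide and 1.66 after MMS. Both stressed values were above both references, but the references lay far apart, and neither difference passed (1.11 ± 0.39 SE, limma adjusted p = 0.229, and 0.70 ± 0.39 SE, limma adjusted p = 0.361). The polyubiquitin gene UBI4 had 0.58 and 0.50 in the references, 1.41 after hydrogen peroxide (limma adjusted p = 0.0784) and 1.12 after MMS (limma adjusted p = 0.237).

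In slope, limma called 0 of the 42 in either stress, and in the references 19 as slower and 1, the assembly chaperone POC4, as faster than the median gene, where 13.9% of all tested genes were called slower and 10.8% faster. These reference calls again test the centred slope against 0, where the median of all tested genes was 0.037. UBI4 had the highest slopes of the 42, with 0.66 and 0.61. Its deposited signal rose after the shift in both references (0.22 and 0.28 log2 per 10 min), as did that of HUL5 (0.11 and 0.08). For these genes a call as slower is therefore a gain of signal. After MMS 24 of the 42 had a slope above both references and 10 below, and after hydrogen peroxide 13 lay above and 23 below. The shares of all tested genes were 34.0% and 44.5% after MMS and 33.2% and 35.0% after hydrogen peroxide. Their median slope difference was 0.05 after MMS and −0.04 after hydrogen peroxide, against 0.095 and −0.059 for the proteasome members.

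Over the 28 arrays from 0 to 30 min the members followed their own mean profile with a median Pearson's r of 0.836, from 0.316 for PUP2 to 0.960 for PRE3. Among other genes the profile was followed most closely by VPS29 (r = 0.965), MGR3 (r = 0.940) and AHC1 (r = 0.932), then KIC1, LPL1, BET4, BSD2, MTC1, GID8 and PDR1 (r = 0.914). These correlations are a description, because the arrays of 1 culture share their source.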

How the data were processed

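RNA levels were measured on 37 Affymetrix yeast arrays of 4 cultures, with 2 technical arrays at time 0. Per the submitters' processing notes, the authors deposited log2 values made by RMA; no version is given in the sources used here, nor whether normalization was joint. Arrays carry no counts or depth, and their number limits the precision. Of 5900 probe sets, 5498 were named from the platform annotation, 402 were unnamed and 12 symbols were updated from a table of RefSeq genes; the 5449 genes kept their brightest probe set. Genes with a mean above 11.04 over 28 arrays (the 30th percentile) were tested. Each array was centred on the median tested gene. 1 level and 1 slope per gene and culture entered limma 3.58.1 (lmFit and eBayes, R 4.3.3; 1 residual degree of freedom; Benjamini-Hochberg over 3899 genes, threshold 0.05) in 7 comparisons, tested on simulated data. The culture is the replicate, so spread is estimated from the 2 references and assumed for the stressed cultures; nothing in the labels gives a batch. Members named are those called, the extremes of core, base and lid in each comparison, UMP1 and ECM29; pathway genes named are those called, RPN4 and UBI4; and the 10 genes most correlated with the members' mean. Alternatives were deposited values, quantile and cyclic loess normalization (the last chosen after seeing the data), no filter, probe set means, other slope windows, either time 0 array, either reference, a trended prior and array scatter as the error. Members and lists were chosen with earlier results of these data known. No promoter sequences were used.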

Additional observations from a re-analysis of the deposited data

Results flagged for a closer look

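On the centred scale the slopes of the proteasome members lay on opposite sides of the same references in the 2 stressed cultures. The median member slope after hydrogen peroxide was lower than in reference 1 by a median difference of −0.052 log2 per 10 min and than in reference 2 by −0.068, whereas after MMS it was higher by 0.104 and 0.086. On deposited values the hydrogen peroxide side does not hold against the references: the median difference from their mean was 0.00147, where all tested genes had 0.0582. On that scale 1 member lay below both references and 4 above, where 13.2% and 50.1% of tested genes did. The difference between the medians was not tested. The gene by gene fit of hydrogen peroxide against MMS called 0 of 35 members by limma, and 7 members (20.0%) beside 20.0% of all tested genes lay at an unadjusted p below 0.05.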

How the results depend on the processing

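Settings changed these counts and medians as follows; the cause was not tested unless the setting itself shows it. With array scatter as the error, which treats arrays of a culture as independent, 26 members were called in level after hydrogen peroxide, 21 after MMS and 20 between the stresses, and 6, 24 and 27 in the matching slopes, beside 24 in the reference slope. In the same order that fit called 52.1%, 58.6% and 47.5% of all tested genes in level, 10.9%, 37.2% and 36.3% in slope, and 69.6% in the reference slope. Members called in level were higher after hydrogen peroxide and between the stresses, where 20.9% and 28.7% of tested genes were. After MMS 12 were higher and 9 lower, where 22.3% and 36.3% were. In slope they were lower, higher and lower, and higher in the references, where 6.80%, 14.8%, 15.2% and 43.4% were. Between the references themselves, where no stress differs, that fit called 10 members higher and 2 lower in level (34.3%) and 32.8% of all tested genes. Deposited values called 2 members (ECM29 and RPN3) and 12.5% of tested genes in level after hydrogen peroxide. In the reference slope 3 were called on deposited values and 3 with cyclic loess, 0 with slopes from 5 to 30 min, and 9 with a trended prior, where 14.3%, 14.9%, 2.87% and 26.0% of tested genes were called slower. In none of these settings other than array scatter and the deposited hydrogen peroxide level did limma call a member in a stress comparison.

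The median member level after hydrogen peroxide was 0.563 on deposited values, 0.221 with quantile and 0.240 with cyclic loess normalization. All tested genes had medians of 0.293, −0.0440 and −0.0548 in the same order. After MMS the median member level was −0.0508, 0.322 and 0.365 in the same order, −0.0337 without the filter, and between −0.0106 and 0.0387 with 1 reference left out. The median slope after hydrogen peroxide reversed to 0.00147 on deposited values, where all tested genes had 0.0582. The members' value was −0.0448 with quantile, −0.0225 with cyclic loess and −0.0693 without the filter. From 5 to 30 min it was −0.0840, and with 1 reference left out −0.0681 to −0.0522. The median slope after MMS was 0.148 deposited, 0.139 with quantile and 0.139 with cyclic loess, 0.121 without the filter, 0.0816 from 5 to 30 min, 0.0659 over 0 to 60 min against reference 1 alone, and 0.0861 to 0.104 with 1 reference left out. The median reference slope was 0.0572, 0.0563 and 0.0681 under the same scalings, 0.0864 without the filter, 0.0531 over 0 to 60 min, and 0.0883 to 0.0935 with 1 reference left out. Medians of all tested genes were 0.000526, 0.0209 and 0.0357 under those scalings. In the main fit the members had 0.0937 and all tested genes 0.0370. The median slope was subtracted on deposited values only, so that setting also changes the baseline.

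The core median minus the regulatory median in reference level was 0.369 with cyclic loess, 0.407 and 0.411 without the first and second time 0 array, and 0.405 to 0.408 with 1 reference left out. In level after hydrogen peroxide it was −0.0818 with quantile, −0.0903 with cyclic loess, −0.105 and −0.0450 without the first and second time 0 array, and −0.0878 to −0.0603 with 1 reference left out. In level after MMS it was −0.107, −0.105, −0.0978 and −0.140 in the same order, and −0.169 to −0.0463 (without reference 2) with 1 reference left out. For the slope after hydrogen peroxide it was 0.0249 with quantile, 0.0189 from 5 to 30 min and 0.00703 to 0.0235 with 1 reference left out. For the slope after MMS it was 0.0444 with quantile, 0.0389 with cyclic loess and 0.00819 to 0.0327 with 1 reference left out, the lower without reference 2. For the reference slope it was −0.0276 from 5 to 30 min, −0.0249 over 0 to 60 min and −0.0493 to −0.0386 with 1 reference left out. A value counted as moved past the SD of the 2 reference medians, which is small for slopes. With 1 reference left out no residual degree of freedom remains, so those are values with no test. The other 91 values stayed within their limit. No paired analysis was possible because the cultures carry no shared replicate numbers.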

Other observations

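From 30 to 60 min the median member gained 0.063 log2 per 10 min on the median gene in the MMS culture and 0.018 in reference 1, and lost 0.024 in the hydrogen peroxide culture. In the first 5 min the median member gained 0.144 log2 on the median gene in the MMS culture, 0.071 in reference 1 and 0.044 in the hydrogen peroxide culture, and changed by −0.035 in reference 2.

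The signal of a ribosomal RNA control probe set relative to the median gene was lower in the hydrogen peroxide culture, with a median of −2.29 log2 over its arrays, than in the other cultures (0.02, −0.38 and −0.77). Its part in the member values was not tested.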
